A study of Mus musculus with 6 samples.

Results

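The genes described here encode splicing factors of 3 families: the SR proteins (symbols beginning with Srsf and a number), the heterogeneous nuclear ribonucleoproteins (hnRNP, symbols beginning with Hnrnp) and the protein subunits of the small nuclear ribonucleoproteins (snRNP, symbols beginning with Snrp). They were chosen by symbol among 23850 gene entries, which gave 41 genes, 11 SR, 18 hnRNP and 12 snRNP. Averaged over the 6 libraries, 39 of them reached 1 FPKM (a level in fragments, scaled for gene length and for library total), namely 10 SR, 18 hnRNP and 11 snRNP genes. They stand among 10096 tested genes. The other two members were at the floor: Srsf12 was listed at 0 in all DMSO libraries and at 0.171 FPKM or less in the CHIR99021 libraries, and Snrpn, an Sm protein gene whose entry overlaps Snurf, was at 0.178 FPKM or less in every library.

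RNA was sequenced from germinal centre B cells that were generated in vitro, starting from naive follicular B cells of C57BL/6J mice, wild type in genotype. All cultures spent 4 days on feeder cells that express CD40L with IL-4 at 1 ng/ml, and then 36 h on such feeders with IL-21 at 10 ng/ml, so the control group also carries both cytokines and CD40L. During the 36 h, 3 cultures received CHIR99021 at 3 uM, an inhibitor of the kinase GSK3, and 3 received the solvent DMSO, which the labels print with the same 3 uM. The series calls the samples biological triplicates, and the sources used here do not give the age or sex of the mice or how many were pooled per culture.

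Splicing removes introns from new transcripts through the spliceosome, which is built from snRNPs. Each of the U1, U2, U4 and U5 particles holds a ring of Sm proteins on its small nuclear RNA, with further proteins particular to each particle. SR proteins mostly bind exonic enhancers and help the spliceosome to choose a splice site. Many hnRNP proteins act as repressors or context-dependent regulators of the same choice, and also package, export and stabilise RNA. In lymphocytes these regulators are known for exon choice in Ptprc (CD45) and for the balance of secreted and membrane immunoglobulin. GSK3 phosphorylates some splicing regulators, and a transcript level does not report phosphorylation.

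In the promoters, 3 short motifs were searched on both strands: the E-box CACGTG, the ETS motif CCGGAAG and the palindrome CTCGCGAG. The RefSeq promoter table (GRCm38.p6, the build that mm10 names) held 49 promoters for 36 members, each from 250 bases before to 50 bases after an annotated start. Snrpb, Snrpd1 and Hnrnpul2 had no entry. The 250 bases before the start are shown for Snrpd3, the single member called in the comparison without a replicate block, for Snrpg, the member with the highest level, for Srsf4, whose window holds both an ETS motif and the palindrome, and for Snrpa, whose window holds the E-box more than once. Capitals mark the motifs.
Snrpd3 (chr10:75517792-75518041, plus strand): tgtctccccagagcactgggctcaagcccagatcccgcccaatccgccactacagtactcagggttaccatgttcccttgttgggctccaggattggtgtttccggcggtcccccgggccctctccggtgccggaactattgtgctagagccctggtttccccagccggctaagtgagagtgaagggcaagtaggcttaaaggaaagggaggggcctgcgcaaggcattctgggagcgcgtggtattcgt
Snrpg (chr6:86371290-86371539, plus strand): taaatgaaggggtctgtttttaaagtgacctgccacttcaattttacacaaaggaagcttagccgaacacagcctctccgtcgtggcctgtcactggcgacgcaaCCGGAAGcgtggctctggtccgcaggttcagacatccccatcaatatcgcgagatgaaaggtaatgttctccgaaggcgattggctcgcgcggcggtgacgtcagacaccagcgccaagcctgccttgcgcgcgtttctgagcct
Srsf4 (chr4:131873387-131873636, plus strand): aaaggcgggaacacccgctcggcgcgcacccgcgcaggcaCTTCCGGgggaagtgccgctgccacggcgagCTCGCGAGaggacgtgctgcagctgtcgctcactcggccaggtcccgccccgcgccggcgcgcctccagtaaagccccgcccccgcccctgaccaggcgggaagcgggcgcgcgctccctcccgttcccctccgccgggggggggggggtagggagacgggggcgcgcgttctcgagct
Snrpa (chr7:27196272-27196521, minus strand): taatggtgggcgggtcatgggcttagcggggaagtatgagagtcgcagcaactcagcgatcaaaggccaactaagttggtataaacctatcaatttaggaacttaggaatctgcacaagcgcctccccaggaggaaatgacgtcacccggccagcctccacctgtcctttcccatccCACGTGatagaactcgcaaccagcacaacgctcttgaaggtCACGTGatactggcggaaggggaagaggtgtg
The Snrpd3 window holds none of the 3 motifs. In Srsf4 the first base of the ETS motif lies at -210 and that of the palindrome at -179, counted from the start. The Snrpa window carries E-boxes at -73 and -32, and the ETS motif of Snrpg lies at -145.

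The share of promoters that hold each motif varied by family. The palindrome was in 3 of 13 SR promoters (23.1%), 1 of 26 hnRNP promoters (3.85%) and 0 of 10 snRNP promoters, against 2.05% of the promoters of all tested genes and 0.919% of all promoters in the table. The ETS motif was in 46.2% of SR, 15.4% of hnRNP and 40% of snRNP promoters, against 19.7% for tested genes and 8.86% for the table. The E-box was in 0 of 13 SR promoters, 5 of 26 hnRNP promoters (19.2%) and 2 of 10 snRNP promoters (20.0%), against 10.5% for tested genes and 7.15% for the table. Several members have more than 1 promoter in the table (7 members), and some of those windows overlap, so the promoters are not independent. Counted by gene, the palindrome was in 2 of 10 SR genes, of which Srsf4 gave 2 windows with the same site, and the E-box was in 1 of 9 snRNP genes, Snrpa. The ETS motif was in 4 of 10 SR, 2 of 17 hnRNP and 4 of 9 snRNP genes. Of the tested genes, 7604 had a promoter in the table. Among these the palindrome was in 185, the E-box in 954 and the ETS motif in 1747. A match is a description of letters and not of a bound site, and no test was made.

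The 6 libraries held 527290.2 to 617449.0 FPKM in all, of which the members made up 1.17% to 1.405%. The sources used here do not give the number of sequenced fragments. The confidence limits in the deposited tables, which cover a single library only, lay a median of 5.22% to 6.47% away from the level for members, against 12.51% to 15.36% for all tested genes. Libraries correlated at 0.970 to 0.980 within a group and at 0.942 to 0.967 between groups, on the log2 scale across genes. All 8 B cell markers were above the limit on level, with sums of 5894 to 7798 FPKM in DMSO and 3499 to 4054 FPKM in CHIR99021 libraries, and all 8 were called lower. Of 7 germinal centre markers 6 were above it, Rgs13 was not, 1 was called lower, and their sums were 128.9 to 135.2 and 116.8 to 125.3 FPKM. Markers of fibroblasts, a type that feeder cells can be, were present (6 of 10 tested, Thy1 called lower), with sums of 75.91 to 311.2 FPKM in DMSO and 55.39 to 237.9 FPKM in CHIR99021 libraries. Of 8 T cell markers 2 were tested, Cd2 (39.99 FPKM as the mean of the 6 libraries) and Lck (13.31 FPKM). These made up nearly all of the T cell sums of 38.76 to 75.27 FPKM. Cd3d, Cd3g, Cd4 and Cd8a averaged 0.403 FPKM or less, and Cd3e was at 0 in all libraries. Of 6 myeloid markers 2 were tested (2.482 to 8.051 FPKM summed, 1 called lower), with Cd14 at 0. Plasma cell markers summed to 492.0 to 770.0 FPKM in DMSO and 478.9 to 597.8 FPKM in CHIR99021 libraries, with 3 of 6 called higher (Bhlha15, Irf4 and Prdm1). Jchain was the largest part of each sum and went the other way, uncalled without the block. It had means of 451.8 FPKM in DMSO and 289.3 FPKM in CHIR99021 libraries. The 10 proliferation markers summed to 1452 to 1558 FPKM in DMSO and 1334 to 1365 FPKM in CHIR99021 libraries, and none was called. With the block described below, the calls were 8 lower for B cell, 1 higher and 2 lower for germinal centre, 4 higher and 1 lower for plasma cell, 4 lower for fibroblast, 1 lower for T cell, 1 lower for myeloid, and 1 higher and 3 lower for proliferation markers. The part of cell makeup in the members' values was not tested, and in these bulk samples fewer cells of a type and less RNA per cell cannot be told apart.

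The splicing factors were among the abundant messages of these cells. The median member had 154.8 FPKM over the 6 libraries, against 11.52 FPKM for the median tested gene. The medians were 119.7 FPKM for SR, 163.6 FPKM for hnRNP and 208.0 FPKM for snRNP genes. The hnRNP median rests in part on Hnrnpa1, whose level is uncertain, as described below.

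**Figure D1:**
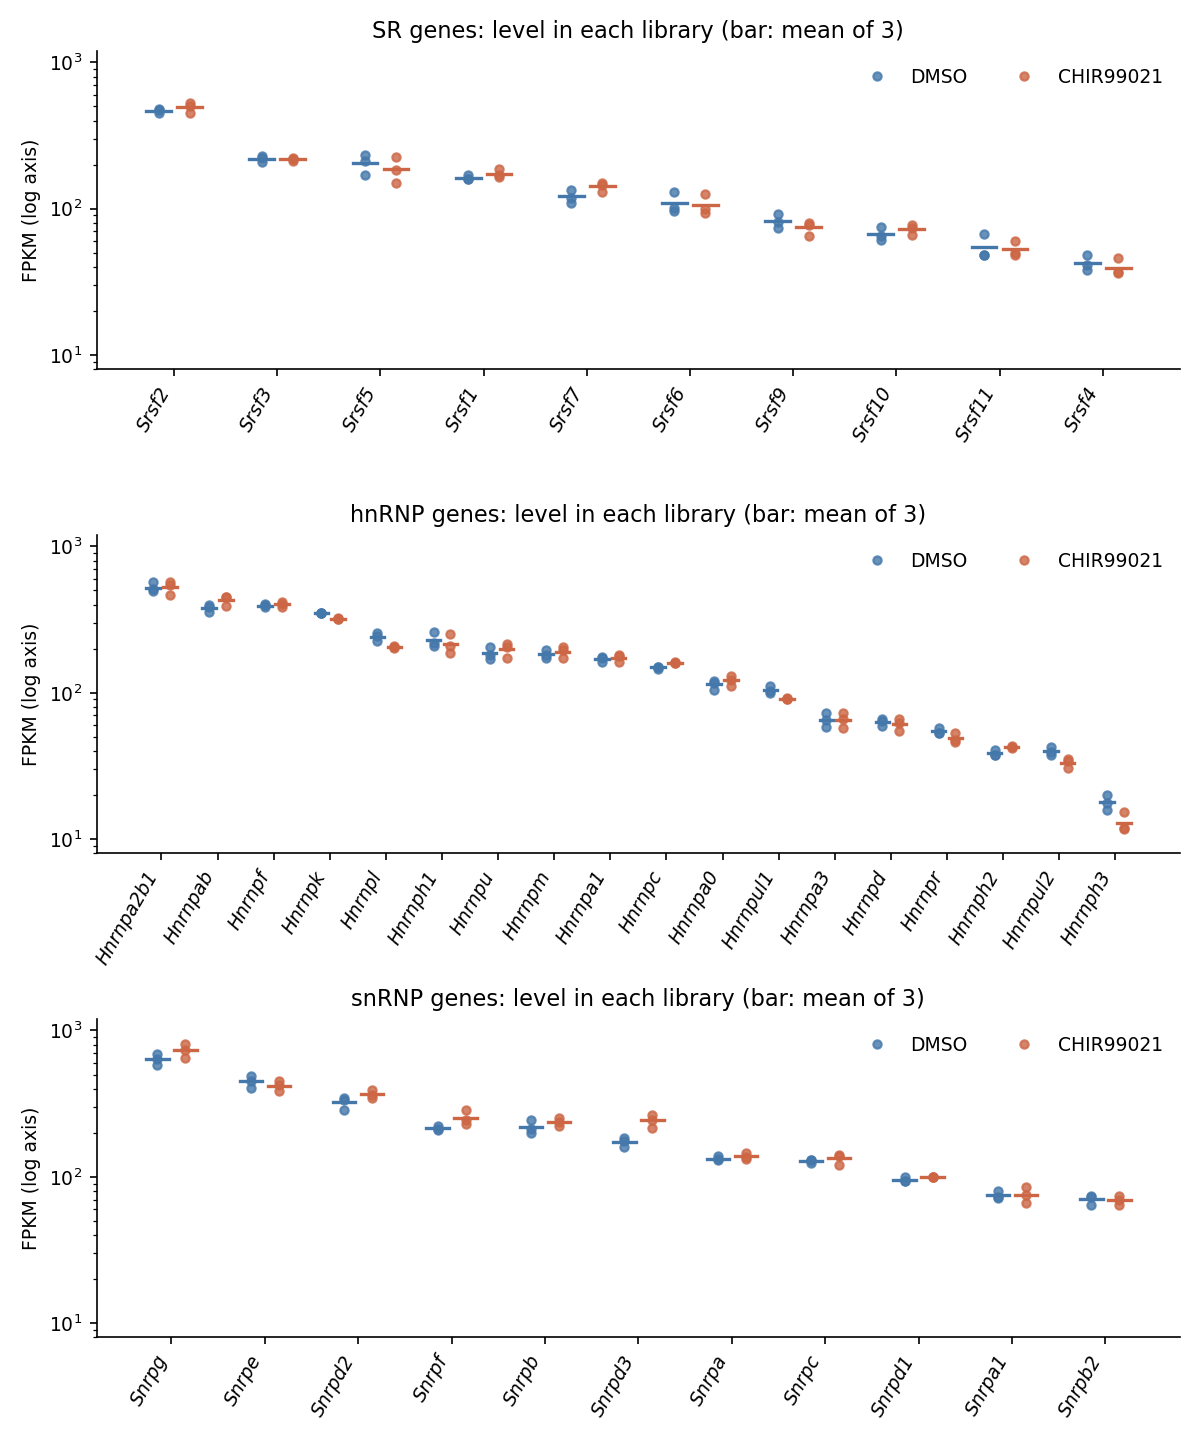
Level of each of the 39 members in every library, in FPKM on a log axis, ordered by mean within each family; points are libraries (3 DMSO, 3 CHIR99021) and bars are group means. Levels run from 15.4 FPKM (Hnrnph3) to 683.1 FPKM (Snrpg) as means of 6 libraries, while the points of the treatments lie close together for most genes.

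Among the SR genes, Srsf2 (SC35, an activator of many exons) had the highest level, 480.5 FPKM as the mean of the 6 libraries. Srsf3, whose small protein also serves in mRNA export, followed with 219.3 FPKM, then Srsf5 with 195.7 and Srsf1 with 168.0 FPKM. Srsf7, Srsf6, Srsf9, Srsf10, Srsf11 and Srsf4 followed in this order, from 131.7 to 41.12 FPKM. Srsf3 and Srsf5 lay within the spread of their libraries, while the lowest Srsf2 library (447.9 FPKM) stood above the highest library of any other SR gene (231.0 FPKM, Srsf5). The DMSO means of the 10 genes spanned 10.99-fold.

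The hnRNP levels spanned 29.36-fold in DMSO. Hnrnpa2b1, an RNA-packaging protein of the A/B type, was highest at 526.0 FPKM, followed by Hnrnpab (405.3 FPKM) and Hnrnpf (398.4 FPKM), a reader of G-rich sequence, which overlapped each other. Hnrnpk, which binds C-rich RNA, had 335.8 FPKM and Hnrnpl, which binds CA repeats and silences Ptprc exons, 223.7 FPKM. The low end was held by Hnrnph2 (40.54 FPKM), Hnrnpul2 (36.56 FPKM) and Hnrnph3 (15.4 FPKM), so the genes of the F/H group covered most of the range. Entries Gm10052 and Gm6793, which lie in the spans of Hnrnpa1 and Hnrnpa3, had 316.6 and 500.0 FPKM, more than Hnrnpa1 (172.4 FPKM) and Hnrnpa3 (65.43 FPKM) themselves, so the levels of these genes are uncertain. Hnrnpa1 and Gm10052 summed to 479.1 ± 12.1 FPKM (SD, n = 3) in DMSO and 498.8 ± 24.5 FPKM in CHIR99021 libraries. For Hnrnpa3 and Gm6793 the sums were 562.0 ± 24.6 and 568.8 ± 46.7 FPKM. Hnrnpab, Hnrnph3, Hnrnpk, Snrpa and Snrpf also share their spans with other entries. The highest of these averaged 7.46 FPKM over the 6 libraries (Rmi1, in the span of Hnrnpk).

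The 7 Sm ring genes differed in transcript level. Each ring holds 1 copy of each protein, but a transcript level does not give a protein level. In DMSO libraries Snrpg had 636.2 ± 52.7 FPKM (SD, n = 3), Snrpe 448.6 ± 41.0 and Snrpd2 322.5 ± 33.1. Snrpb had 218.8 ± 24.1 FPKM, Snrpf 214.1 ± 6.4 and Snrpd3 173.2 ± 12.4. Snrpd1 was lowest at 95.5 ± 3.5 FPKM, 6.661-fold below Snrpg. Snrpb and Snrpf did not differ beyond their spread. The particle-specific genes were closer together: Snrpa and Snrpc of U1 had 133.3 ± 4.4 and 128.4 ± 3.3 FPKM, and Snrpa1 and Snrpb2 of U2 had 75.1 ± 4.8 and 70.3 ± 5.5 FPKM. Within each particle the pair overlapped, and every DMSO library of the U1 pair was above every library of the U2 pair.

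CHIR99021 was compared with DMSO by limma on log2(FPKM + 1) over all tested genes, and a gene was called at a Benjamini-Hochberg adjusted p under 0.05. One member, Snrpd3, rose, and no member fell: 1 of 39 members (2.56%) was called, against 21.4% of all tested genes (8.13% higher and 13.3% lower). By family, 0 of 10 SR, 0 of 18 hnRNP and 1 of 11 snRNP genes were called. At an unadjusted p under 0.05 there were 0 SR, 4 hnRNP and 2 snRNP genes, against 35.8% of all tested genes. Over all tested genes 2164 were called, and 1061, 1310 and 1410 without CHIR99021 replicate 3, DMSO replicate 3 and CHIR99021 replicate 2. The direction split of all genes depends on scaling: 821 higher and 1343 lower as deposited, 1115 and 1174 with upper-quartile scaling, 1232 and 1174 with quantile normalization, and 442 and 1195 with a common FPKM total.

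The samples of both groups that share a replicate number deviated together, and with this number as a block 10 of 39 members (25.6%) were called, 6 higher and 4 lower, against 42.8% of all tested genes (18.4% higher and 24.4% lower). These were Srsf7, Hnrnpab, Snrpd3, Snrpf, Snrpg and Snrpd2 among the higher, and Hnrnph3, Hnrnpl, Hnrnpul1 and Hnrnpul2 among the lower. The blocked calls fell on 1 of 10 SR, 5 of 18 hnRNP and 4 of 11 snRNP genes. The groups did not overlap for 10 members (25.6%), 4 higher and 6 lower, against 40.1% of all tested genes (17.0% higher and 23.1% lower). All 3 replicate numbers moved in the same direction for 27 members, 15 up and 12 down, against 66.6% of all tested genes.

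The changes were small. The median size of the log2 change was 0.10 for members and 0.23 for all tested genes, and the changes ran from -0.43 (Hnrnph3) to 0.48 (Snrpd3). For 37 of 39 members the 95% interval of the log2 change lay within 1.5-fold either way, against 50.9% of all tested genes, and for all 39 it lay within 2-fold, against 84.6%. The exceptions at 1.5-fold were Hnrnph3 and Snrpd3. Intervals are narrower for genes of high level, and the members' levels were high.

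**Figure D2:**
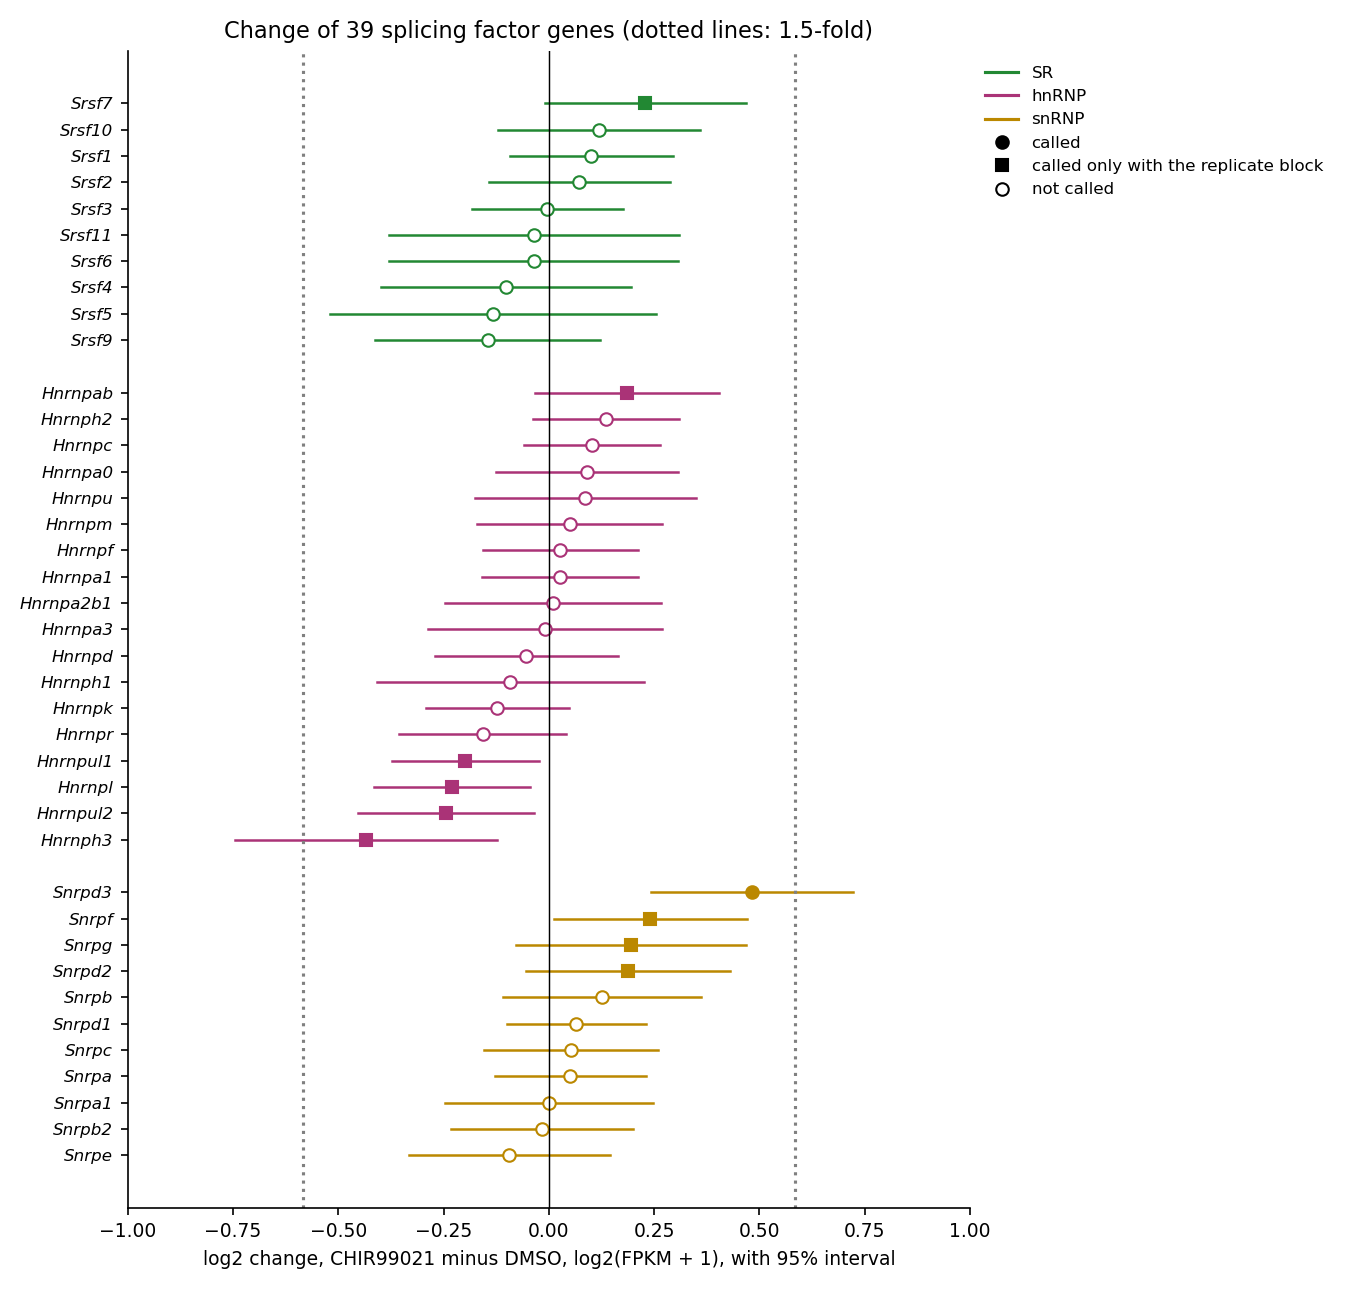
Log2 change of each member, log2(FPKM + 1) scale, CHIR99021 minus DMSO, with 95% interval without a replicate block (n = 3 per group). Filled circles are genes called without the block. Squares are genes called with the block and not without it, both on deposited FPKM with the limit of 1 FPKM. Dotted lines mark 1.5-fold. Snrpd3 stands apart at 0.48, and the intervals of 37 of the 39 genes stay between the dotted lines.

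The median log2 change was -0.019 for SR, 0.001 for hnRNP and 0.065 for snRNP genes, against -0.036 for all tested genes. The sign of the SR median depends on scaling: it was 0.043 with quantile normalization, 0.036 with upper-quartile scaling and -0.055 with a common FPKM total. The hnRNP median was 0.041, 0.057 and -0.035 under the same settings. The snRNP median stayed above 0 in all of them, at 0.103, 0.121 and 0.030. The difference between the families was not tested.

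Summed over its genes, the SR family had 1498.8, 1626.1 and 1467.2 FPKM in DMSO libraries 1, 2 and 3, and 1460.4, 1680.5 and 1542.8 FPKM in CHIR99021 libraries. The hnRNP family had 3196.6, 3421.4 and 3303.3 FPKM in DMSO and 3061.8, 3473.5 and 3381.2 FPKM in CHIR99021 libraries. For both families the groups overlapped. The hnRNP sums leave out Gm10052 and Gm6793, so they share the uncertain levels of Hnrnpa1 and Hnrnpa3. The snRNP family had 2545.2, 2360.4 and 2642.4 FPKM in DMSO and 2692.1, 2615.8 and 2998.6 FPKM in CHIR99021 libraries. Here too the groups overlapped, although each CHIR99021 library was above the DMSO library of its own number. The snRNP mean was 10.1% higher with CHIR99021 (2768.8 ± 202.6 against 2516.0 ± 143.3 FPKM, SD, n = 3), the SR mean 2.0% higher, and the ratio of the hnRNP means was 0.9995. These figures are for deposited FPKM and depend on scaling. As shares of the FPKM total, SR genes made up 0.243%, 0.308% and 0.244% in DMSO libraries 1, 2 and 3. In CHIR99021 libraries they made up 0.237%, 0.302% and 0.251%. The hnRNP shares were 0.518%, 0.649% and 0.549% in DMSO and 0.497%, 0.624% and 0.549% in CHIR99021 libraries. The snRNP shares are given below. The snRNP difference lay mostly in the Sm ring, with 2352.1 ± 187.7 against 2108.9 ± 131.9 FPKM, while the U1 and U2 genes summed to 416.7 ± 16 and 407.1 ± 11.3 FPKM.

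**Figure D3:**
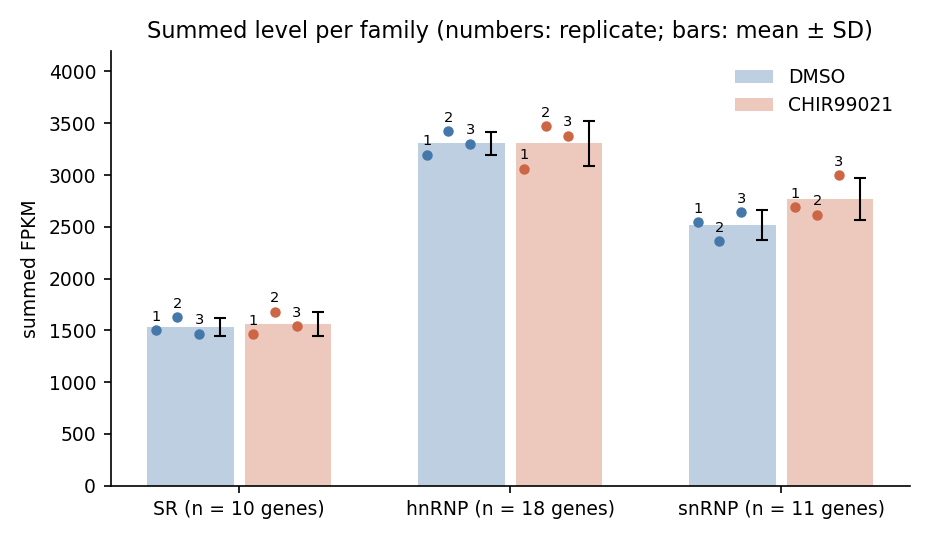
Summed FPKM of the tested genes of each family; points are libraries labelled with their replicate number, columns are means and error bars are SD (n = 3 per group). On the deposited FPKM the SR and hnRNP columns are level between the treatments, and the snRNP column is 10.1% higher with CHIR99021.

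Among the Sm ring genes Snrpd3 rose. SmD3, its product, pairs with SmB in the ring and carries a tail of arginines that are methylated before assembly. Snrpd3, at chr10:75518042-75535440, had 159.4, 176.5 and 183.6 FPKM in DMSO libraries and 216.1, 245.9 and 266.4 FPKM in CHIR99021 libraries. Every CHIR99021 library was above every DMSO library. The mean was 1.40-fold higher, with a log2 change of 0.48 ± 0.10 (SE, 95% interval 0.24 to 0.72, limma adjusted p = 0.0155, and 0.000614 with the replicate block). The call was lost without CHIR99021 replicate 3 (log2 change 0.41, adjusted p 0.0706) and without CHIR99021 replicate 2 (0.47, adjusted p 0.0521), fits with fewer samples, while the log2 change stayed between 0.41 and 0.56 whichever library was left out.

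Snrpf, Snrpg and Snrpd2, which encode other proteins of the ring, were higher on average. On the deposited FPKM they were called with the block and not without it. Quantile normalization without the block also called Snrpf and Snrpd2. Snrpf had 221.5, 209.5 and 211.5 FPKM in DMSO and 231.3, 244.1 and 287.3 FPKM in CHIR99021 libraries. These groups did not overlap (log2 change 0.24, 95% interval 0.01 to 0.47, limma adjusted p = 0.124, and 0.0428 with the block). Snrpg had 637.0, 583.0 and 688.5 FPKM in DMSO and 732.0, 644.0 and 814.2 FPKM in CHIR99021 libraries, and Snrpd2 had 336.0, 284.7 and 346.7 against 361.3, 345.4 and 394.1 FPKM. Both overlapped between groups, yet each CHIR99021 library was above the DMSO library of its number, and library 2 was lowest in each group. Their log2 changes were 0.20 and 0.19 (limma adjusted p = 0.281 and 0.239, and 0.0171 and 0.0294 with the block).

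The remaining Sm genes were not called in either fit. Snrpb, which encodes the Sm proteins B and B', had a log2 change of 0.13 (95% interval -0.11 to 0.36) and Snrpd1 of 0.07 (-0.10 to 0.23). Snrpe was the Sm gene with a value below 0, with 489.3, 407.3 and 449.3 FPKM in DMSO and 423.3, 388.0 and 448.5 FPKM in CHIR99021 libraries. The groups overlapped, each CHIR99021 library was below the DMSO library of its number, and the log2 change was -0.09 (-0.33 to 0.14). So the 7 ring genes had values from -0.09 to 0.48, with 6 above 0.

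None of the U1 and U2 genes was called in either fit. Snrpa and Snrpc, the proteins that U1 adds to the ring, had log2 changes of 0.05 and 0.05, with 95% intervals of -0.13 to 0.23 and -0.15 to 0.26. Snrpa1 and Snrpb2, the pair of U2, had -0.0001 (-0.25 to 0.25) and -0.02 (-0.23 to 0.20). The sign of Snrpb2 turned to 0.033 with quantile normalization and 0.039 with upper-quartile scaling.

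Among the SR genes Srsf7, a zinc-knuckle protein that also takes part in mRNA export, had the highest log2 change. It had 110.0, 135.1 and 118.8 FPKM in DMSO and 129.9, 150.9 and 145.6 FPKM in CHIR99021 libraries. The groups overlapped through DMSO library 2 and CHIR99021 library 1, and within each number the CHIR99021 library was higher. The log2 change was 0.23 ± 0.10 (SE, 95% interval -0.01 to 0.47, limma adjusted p = 0.155, and 0.0146 with the block). Srsf10, a general repressor when dephosphorylated, had 60.93, 74.54 and 65.12 FPKM in DMSO and 66.27, 77.85 and 73.87 FPKM in CHIR99021 libraries. The groups overlapped and Srsf10 was called in neither fit (0.12, -0.12 to 0.36, limma adjusted p = 0.457).

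The most abundant SR genes showed no difference beyond their spread. Srsf2 had 472.5, 477.5 and 453.9 FPKM in DMSO and 447.9, 526.5 and 504.7 FPKM in CHIR99021 libraries (log2 change 0.07, -0.14 to 0.29). Srsf3 had 228.5, 223.1 and 207.4 against 223.7, 219.9 and 213.4 FPKM (log2 change -0.003, -0.18 to 0.18), with a sign that turned under 2 of the 3 other scalings. Srsf5 had 210.7, 231.0 and 170.8 against 184.2, 226.5 and 151.0 FPKM (-0.13, -0.52 to 0.25). Its spread over replicate numbers was larger than the difference between treatments: library 3 was lowest and library 2 highest in both groups. Within each number the CHIR99021 library was the lower one (adjusted p = 0.0978 with the block).

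Srsf9, with 82.5 ± 9.1 FPKM in DMSO and 74.5 ± 8.1 FPKM in CHIR99021 libraries (SD, n = 3), had the lowest log2 change of the family, -0.15 (-0.41 to 0.12), and was lower in CHIR99021 in 3 of 3 replicate numbers. Srsf1, the founding member of the family, had 0.10 (-0.09 to 0.29), and Srsf4, Srsf6 and Srsf11 lay between -0.10 and -0.03. All 10 tested SR genes overlapped between groups.

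In the hnRNP family the largest differences were below 0. Hnrnph3, a G-run binding protein of low level, had 15.93, 20.00 and 17.57 FPKM in DMSO and 11.69, 15.29 and 11.96 FPKM in CHIR99021 libraries. No CHIR99021 library reached the lowest DMSO library. The log2 change was -0.43 ± 0.13 (SE, 95% interval -0.74 to -0.12, limma adjusted p = 0.0555, and 0.00366 with the block). Hnrnph3 passed the threshold when the lower limit on a gene's level was set to 5 FPKM (0.0442) and without CHIR99021 replicate 2 (0.0351). The other genes of its group had log2 changes of -0.09 (Hnrnph1), 0.03 (Hnrnpf) and 0.14 (Hnrnph2).

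Hnrnpl had 254.6, 226.0 and 244.6 FPKM in DMSO and 201.1, 206.0 and 209.6 FPKM in CHIR99021 libraries. The groups did not overlap (log2 change -0.23 ± 0.08, SE, limma adjusted p = 0.0777, and 0.0183 with the block), and without DMSO replicate 2 the gene passed the threshold (0.0440). Hnrnpul2, which encodes a protein related to hnRNP U, had 37.64, 42.31 and 39.27 FPKM in DMSO and 30.67, 35.08 and 34.42 FPKM in CHIR99021 libraries. Its groups did not overlap either (-0.25 ± 0.09, limma adjusted p = 0.0924, and 0.0170 with the block). The related Hnrnpul1 had 104.9 ± 5.8 FPKM in DMSO and 91.2 ± 0.5 FPKM in CHIR99021 libraries (SD, n = 3), again without overlap (-0.20, limma adjusted p = 0.101, and 0.0295 with the block). Hnrnpu itself, the nuclear scaffold protein, overlapped between groups, with 0.09 (-0.18 to 0.35).

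On the upper side, Hnrnpab had 354.7, 384.2 and 398.1 FPKM in DMSO and 394.4, 452.5 and 448.2 FPKM in CHIR99021 libraries. The groups overlapped slightly (log2 change 0.19, 95% interval -0.03 to 0.40, limma adjusted p = 0.2, and 0.0207 with the block). Hnrnph2, with 40.37, 37.80 and 37.61 against 42.55, 41.88 and 43.00 FPKM, did not overlap and was called in neither fit (0.14, limma adjusted p = 0.239). Hnrnpc, which binds U-rich tracts, was likewise higher without overlap and uncalled, 149.3 ± 2.5 FPKM in DMSO and 160.4 ± 2.7 FPKM in CHIR99021 libraries (0.10). Hnrnpk and Hnrnpr were lower without overlap and uncalled, at -0.12 and -0.16.

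Of the 3 hnRNP genes with the highest levels, Hnrnpab is described above, and Hnrnpa2b1 and Hnrnpf were close to 0. Hnrnpa2b1 had 493.6, 567.5 and 509.5 FPKM in DMSO and 464.4, 572.3 and 548.6 FPKM in CHIR99021 libraries (log2 change 0.01, -0.25 to 0.27). Hnrnpf had 384.2, 397.2 and 402.2 against 384.7, 405.3 and 416.7 FPKM (0.03, -0.16 to 0.21). Both overlapped, and both signs turned with a common FPKM total, to -0.026 and -0.009. The remaining 6 genes, Hnrnpa0, Hnrnpa1, Hnrnpa3, Hnrnpd, Hnrnph1 and Hnrnpm, overlapped between groups with log2 changes from -0.09 to 0.09.

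Within each treatment the members varied together with the replicate number. Deviations from the group mean correlated between same-numbered libraries at 0.728, 0.836 and 0.761 across the 39 members for numbers 1, 2 and 3, as a description across genes that share their libraries. Across all tested genes they correlated at 0.535, 0.490 and 0.517, so the pattern is not particular to the members. The library with the highest value had the same number in both groups for 10 of 10 SR, 11 of 18 hnRNP and 8 of 11 snRNP genes. The share over all tested genes was not counted. Number 2 was highest in both groups for 7 SR and 8 hnRNP genes and for 0 snRNP genes, and the median deviation of number 2 was 0.127 for SR, 0.058 for hnRNP and -0.042 for snRNP genes (log2). For number 1 the medians were -0.128, -0.104 and -0.024, and for number 3 they were -0.031, 0.014 and 0.090. By these medians of the deposited FPKM, SR genes were highest in the libraries numbered 2, and snRNP genes in those numbered 3. The snRNP order depends on scaling, since FPKM totals were lowest in number 2 (527290.2 in DMSO and 556643.5 in CHIR99021). As a share of the total, snRNP genes made up 0.412%, 0.448% and 0.439% in DMSO libraries 1, 2 and 3. In CHIR99021 libraries they made up 0.437%, 0.470% and 0.487%. The SR share was highest in number 2 in both groups (0.308% and 0.302%).

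Other measures moved with the replicate number too. Fibroblast markers summed to 311.2, 112.3 and 75.91 FPKM in DMSO libraries 1, 2 and 3, and to 237.9, 93.8 and 55.39 FPKM in CHIR99021 libraries. Of the 6 tested fibroblast markers, 5 were highest in number 1 in both groups. Of the 10 proliferation markers, 6 were highest and 3 lowest in number 2 in both groups, and their sums were 1516, 1558 and 1452 FPKM in DMSO and 1352, 1365 and 1334 FPKM in CHIR99021 libraries. The snRNP transcripts are also shorter, with a median length of 1161 bases for the longest coding transcript against 2510.5 for SR and 2908.5 for hnRNP genes (GENCODE M21). Across the 39 members, which share these libraries, transcript length and the deviation of number 2 had a Spearman coefficient of 0.414, and 0.006, 0.032 and 0.273 within the SR, hnRNP and snRNP families. The part of cell makeup, cycling, transcript length and library total in these differences was not tested.

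**Figure D4:**
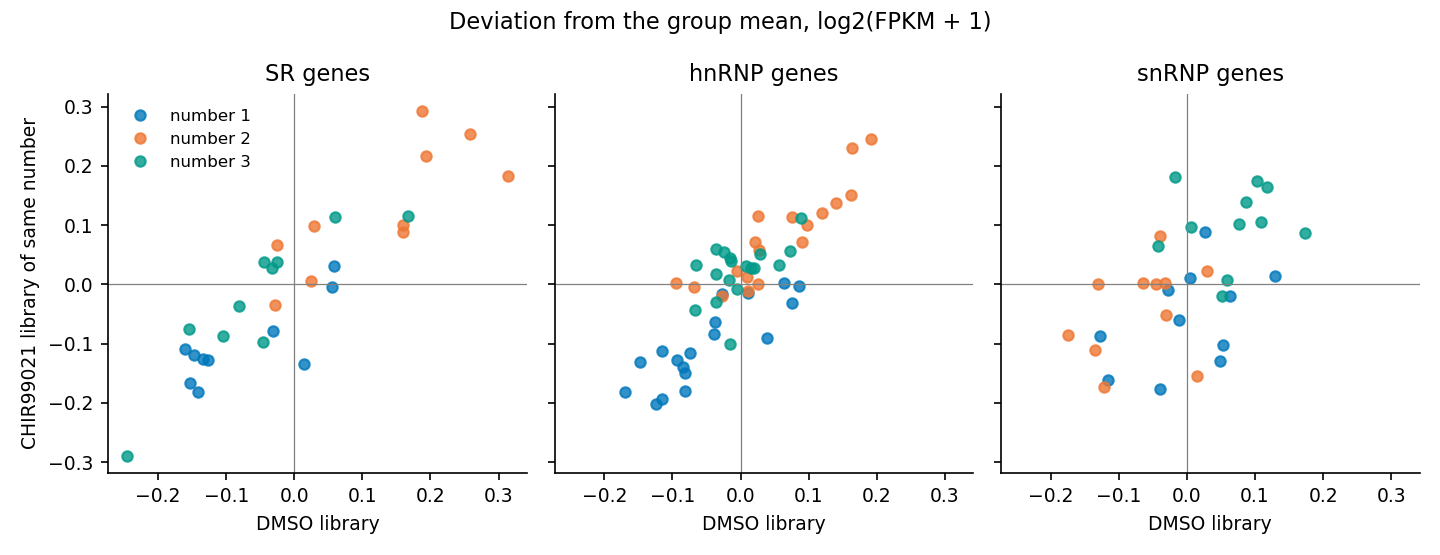
Deviation of each member's log2(FPKM + 1) from its group mean in a DMSO library (x axis) and in the CHIR99021 library of the same replicate number (y axis), by family; each gene gives 1 point per number. Number 2 was highest in both groups, and so at the upper right, for 7 of 10 SR and 8 of 18 hnRNP genes. For most but not all snRNP genes number 3 lies at the upper right.

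Other splicing genes were taken from 7 lists outside the families' symbols, 136 genes counted once. Of these 10 rose and 9 fell (14.0%), and with the block 31 rose and 15 fell (33.8%), both below the shares of all tested genes given above. Some of these genes encode proteins that act directly on the members' proteins. The list counts are small and moved when single libraries were left out: without CHIR99021 replicate 3, for example, the assembly list had 1 call and the LSm, U1, U2, U5 and tri-snRNP, SF3 and Prp19 lists had none. Without any 1 library other than DMSO replicate 2, the Prp19, SF3 and hnRNP-related lists had at most 1, 0 and 3 calls.

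Of the 16 genes for the assembly of Sm rings, by the SMN complex and by the methylosome that methylates Sm tails, 4 rose and none fell (25.0%, against 21.4% of all tested genes), with a median log2 change of 0.212. With the block 8 rose and 1 fell (56.2%, against 42.8%). Prmt5, the methyltransferase for the arginine tails of SmB, SmD1 and SmD3, had 32.95, 36.08 and 36.62 FPKM in DMSO and 63.41, 71.29 and 67.04 FPKM in CHIR99021 libraries. The groups were far apart, with a log2 change of 0.91 ± 0.08 (SE, limma adjusted p = 0.000589). Gemin5, which recognises the small nuclear RNA, rose from 12.4 ± 2.8 to 20.3 ± 3.3 FPKM (SD, n = 3, limma adjusted p = 0.0367), Gemin4 from 11.4 ± 1.7 to 16.8 ± 2.3 FPKM (0.0378) and Ddx20, a helicase of the SMN complex, from 10.2 ± 0.5 to 13.5 ± 0.8 FPKM (0.0348). Wdr77, the partner of Prmt5, had 20.1 ± 3.6 and 28.2 ± 3.2 FPKM and was called with the block only (limma adjusted p = 0.0549, and 0.00224 with the block). Smn1 had 23.5 ± 4.7 and 30.7 ± 3.9 FPKM (0.130, and 0.00609 with the block). With a common FPKM total 2 of the 16 were called, and without CHIR99021 replicate 2 or 3 or DMSO replicate 1 or 3 only 1 was.

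Of 13 LSm genes, many of whose proteins form Sm-like rings, 2 rose and none fell (15.4%, against 21.4% of all tested genes). Their median log2 change was -0.086, and with the block 3 rose and 1 fell (30.8%, against 42.8%). Lsm7 rose from 102.9 ± 6.3 to 136.2 ± 10.8 FPKM (SD, n = 3, limma adjusted p = 0.0184) and Lsm2 from 68.3 ± 3.9 to 83.3 ± 4.8 FPKM (0.0481). Of 21 genes for other proteins of U1, U2, U5, the tri-snRNP and the minor spliceosome, 2 fell and none rose (9.52%, against 21.4%). Their median log2 change was 0.075, and with the block 6 rose and 3 fell (42.9%, against 42.8%). Snrnp25, a protein of the minor U11/U12 particle, fell from 205.7 ± 25.8 to 139.1 ± 14.7 FPKM (SD, n = 3, limma adjusted p = 0.0142), and Cd2bp2, an assembly factor of U5, from 40.4 ± 0.9 to 32.2 ± 1.8 FPKM (0.0274). Snrnp70, which completes the proteins of U1, had 136.5 ± 7.5 and 132.7 ± 12.6 FPKM and was not called (log2 change -0.04, -0.26 to 0.18).

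Of 17 U2-associated SF3 and U2AF genes 1 rose and none fell (5.88%, against 21.4% of all tested genes). It was U2surp, from 19.3 ± 2.4 to 25.6 ± 2.1 FPKM (SD, n = 3, limma adjusted p = 0.0470). With the block 4 rose and 1 fell (29.4%, against 42.8%). Of 22 genes of the Prp19 complex and the catalytic steps, 1 rose and 3 fell (18.2%, against 21.4%). Bcas2 rose from 39.5 ± 1.2 to 49.8 ± 2.1 FPKM (limma adjusted p = 0.0213). Dhx8, a helicase that releases the spliced message, fell from 22.3 ± 2.0 to 17.4 ± 0.9 FPKM (0.0463), Slu7 from 18.2 ± 2.3 to 13.6 ± 0.9 FPKM (0.0467) and Crnkl1 from 18.4 ± 1.2 to 14.7 ± 0.1 FPKM (0.0491). With the block 3 rose and 4 fell (31.8%, against 42.8%).

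Of 23 SR-related proteins and SR kinases 1 fell and none rose (4.35%, against 21.4% of all tested genes). With the block 2 rose and 1 fell (13.0%, against 42.8%). Clk1, a nuclear kinase of SR proteins, had 33.73, 36.29 and 36.84 FPKM in DMSO and 23.37, 26.16 and 25.51 FPKM in CHIR99021 libraries. It fell by 0.49 on the log2 scale (limma adjusted p = 0.00665), without overlap. Srpk1, the cytoplasmic SR kinase, had 24.3 ± 4.2 FPKM in DMSO and 31.5 ± 4.7 FPKM in CHIR99021 libraries and was called with the block only (limma adjusted p = 0.124, and 0.00404 with the block).

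Of 25 hnRNP genes under other symbols and related RNA-binding proteins 2 rose and 3 fell (20.0%, against 21.4% of all tested genes), and with the block 5 rose and 4 fell (36.0%, against 42.8%). Syncrip (hnRNP Q) rose from 74.2 ± 4.5 to 106.0 ± 8.3 FPKM (SD, n = 3, limma adjusted p = 0.00747), while its paralogue Hnrnpr was at -0.16 (log2, uncalled). Mbnl1, a regulator of alternative exons, fell from 90.9 ± 2.8 to 69.9 ± 2.8 FPKM (0.0113), and Ptbp3 from 75.5 ± 8.4 to 55.4 ± 2.8 FPKM (0.0211). Pcbp1, a C-rich RNA binder like Hnrnpk, rose from 259.7 ± 12.4 to 320.6 ± 16.2 FPKM (0.0369). Sfpq, whose protein is a known target of GSK3 in T cells, had 166.8 ± 11.9 and 169.6 ± 14.8 FPKM (log2 change 0.02, -0.20 to 0.25).

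**Figure D5:**
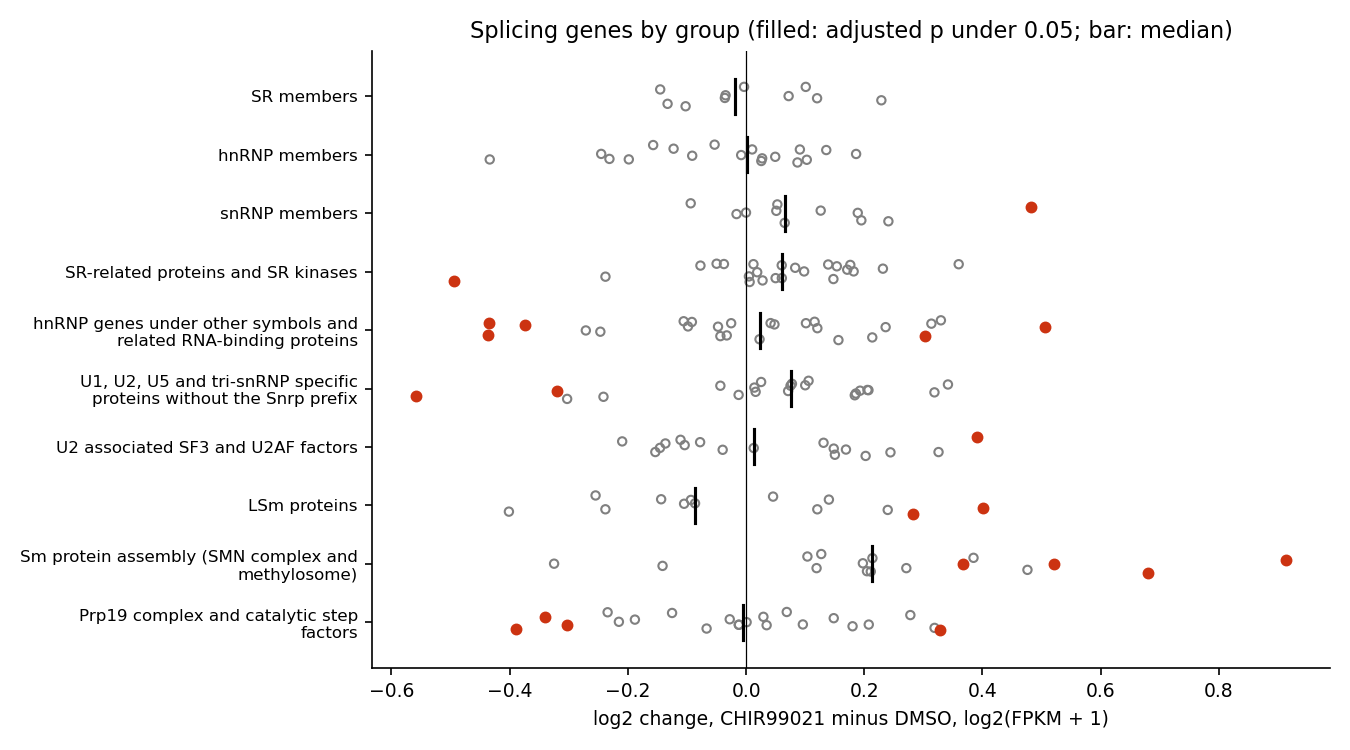
Log2 change of each gene on the log2(FPKM + 1) scale, CHIR99021 minus DMSO, for the 3 families and the 7 lists of other splicing genes; filled points have a limma adjusted p under 0.05 without the block, and bars are medians. Filled points are 1 among the 39 members and 19 among the 136 list genes, and Prmt5 lies farthest to the right at 0.91.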

How the data were processed

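The authors deposited a table of gene FPKM per library, with lower and upper confidence limits and a status, per the file headers. The build was mm10 and the tools were Cufflinks 2.2.1, TopHat2 2.1.1 and cutadapt 1.12, per the submitters' processing notes. How strand and reads with several matches were treated, and which annotation was used, the sources used here do not say, so genes with near copies or overlaps are uncertain. Fragment numbers per library are not stated. FPKM are not counts, so limma 3.58.1 in R 4.3.3 (eBayes with trend) was run on log2(FPKM + 1) for the 10096 genes that averaged at least 1 FPKM, with no block as the main design. All p-values are two-sided, adjusted by Benjamini-Hochberg over all tested genes at a threshold of 0.05. Fold changes on this scale understate those of low genes. The p-values set the group difference against the spread between these samples, which eBayes moderates across genes.

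The replicate numbers of the titles pair the samples: deviations from the group mean correlated at 0.535, 0.490 and 0.517 across all tested genes for numbers 1, 2 and 3. This pairing comes from the data, since the labels do not say what a number marks. The members, lists and tests were chosen with earlier results of these data known. Named members are those called, the 3 highest and the 2 with the largest rise and fall per family, and up to 4 called only with the block. List genes are up to 4 called genes with the smallest adjusted p, of which 1 is not reported here. The other members, Pcbp1, Wdr77, Smn1, Srpk1, Snrnp70, Sfpq and the overlapping entries were named after their values were seen. Other settings tried were the pseudocount, the filter, the variance trend, the scaling, the block and leaving out each library. Khdrbp1 and Trac were not found. Pnisr, Sf3b6, Lsm8, Jchain and Adgre1 were found under older symbols through RefSeq synonyms. Coordinates count from 1. Promoters are from RefSeq; a planned description of protein sequences was not run. The fit was tested on simulated data. The simulated libraries were independent, so that test did not cover samples that deviate together by replicate number. Python 3.11.15, pandas 2.3.3, numpy 2.4.6 and matplotlib 3.10.9 were used.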

Additional observations from a re-analysis of the deposited data

How the results depend on the processing

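The replicate block changed no other call among the named members than those given with the results, and all 2164 genes called without it were called with it in the same direction. The block gave 4321 calls among all tested genes, 10 among members (1 SR, 5 hnRNP, 4 snRNP), and 3 for SR-related genes, 9 for hnRNP-related genes, 9 for the U1, U2, U5 and tri-snRNP list, 5 for SF3 and U2AF, 4 for LSm, 9 for Sm assembly and 7 for Prp19. Quantile normalization called 3 members, all snRNP (Snrpd3, Snrpd2 and Snrpf), with medians of 0.043 (SR), 0.070 (members) and 0.029 (all genes), and 2 Prp19, 4 U1, U2, U5 and tri-snRNP and 2 SF3 genes. Upper-quartile scaling gave medians of 0.036 (SR), 0.121 (snRNP), 0.082 (members) and 0.014 (all genes), and 2 Prp19 and 4 SF3 genes. A common FPKM total gave a median of -0.067 for all genes and called 0 LSm, 0 Prp19, 2 Sm assembly, 1 U1, U2, U5 and tri-snRNP, 0 SF3 and 3 hnRNP-related genes, and Snrpd3 at an adjusted p of 0.0484. A mean of 5 FPKM or more called 2 members, of which 1 is an hnRNP gene (Hnrnph3). With no filter the median of all genes was -0.014, with 1 LSm, 1 Prp19, 2 Sm assembly and 0 SF3 calls. Without a variance trend 1 LSm, 1 Prp19, 2 Sm assembly, 1 U1, U2, U5 and tri-snRNP, 0 SF3 and 3 hnRNP-related genes were called. A pseudocount of 0.1 FPKM called 1 LSm gene.

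Leaving out 1 library at a time gave 1061 to 1983 calls among all genes (median -0.060 to -0.018), 0 to 2 among members (median -0.001 to 0.071), 0 to 0 SR (median -0.066 to 0.087), 0 to 1 hnRNP and 0 to 1 snRNP (median 0.061 to 0.126). The lists gave 0 to 3 LSm, 0 to 2 Prp19, 1 to 2 SR-related, 1 to 4 Sm assembly, 0 to 2 U1, U2, U5 and tri-snRNP, 0 to 1 SF3 and 2 to 4 hnRNP-related calls. The log2 change of Snrpd3 was 0.413 to 0.563 and its adjusted p 0.0167 to 0.0706. Signs turned for Srsf3 (0.057 with quantile normalization, 0.053 with upper-quartile scaling, -0.044 to 0.025 without 1 library), Srsf5 (-0.279 to 0.012 without 1 library) and Hnrnpa2b1 (-0.026 with a common total, -0.050 to 0.1 without 1 library). They also turned for Hnrnpf (-0.009 with a common total) and Snrpb2 (0.033 and 0.039 with quantile and upper-quartile scaling, -0.081 to 0.035 without 1 library). Fewer samples or other tested genes are part of some settings; otherwise the cause was not tested. With 3 libraries per group, depth and replicate number limit which small differences could be detected.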
